A study of Mus musculus with 2 samples.

Results

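Satellite-like predicted transcripts of mouse chromosomes 2 and 9 were followed in RNA from the embryonic ureter on 2 dual-colour oligonucleotide arrays. The group held 6 transcripts of 29846 genes on the array. It was chosen by the Ensembl names of its members, and these names were picked because their ratios between the RNAs were high in the same arrays, so the ratios of the members are given as a description without a test. The arrays carried 7 probes for them, since ENSMUST00000099050 had a pair of probes and each of the others had 1. The files name them as predicted genes 10801 (ENSMUST00000099684) and 10800 (ENSMUST00000099683) on chromosome 2, and 10720 (ENSMUST00000099050), 10718 (ENSMUST00000099046), 10717 (ENSMUST00000099042) and 10715 (ENSMUST00000177969) on chromosome 9.

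Each array compared RNA of pooled E16.5 ureters from *Pparg-cKO* embryos (Pax2-cre/+; Pparg(fl/fl)) with RNA of pooled control ureters (Pparg(fl/?)), all of strain NMRI, without further treatment. PPARG is a nuclear receptor and transcription factor, and the Pax2-driven cre recombines the floxed gene in derivatives of the nephric duct such as the ureteric epithelium, so that the pools also held mesenchyme that this cre does not target. Array 1 held female and array 2 male pools, with the dyes exchanged, so dye and sex cannot be told apart. The second channel's stage label reads E14.5 on the arrays whose titles state E16.5.

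The dye labels and the direction used in the study conflict. RNA A therefore denotes the sample carrying AlexaFluor647 on the first array and AlexaFluor555 on the second, and RNA B its partner. By the labels RNA A is the control, whereas by the direction of the study's text it is *Pparg-cKO*. All ratios are log2 of RNA A over RNA B, and no genotype was assigned to either direction. In *Pparg-cKO* ureters the study reports lower *Upk1a*, by arrays and by in situ hybridization, and higher *Krt4* by arrays. Their mean log2 ratios here were -1.32 for *Upk1a* and 1.19 for *Krt4*, the signs that the study's direction gives if RNA A is *Pparg-cKO*. The deposited fold values, whose sample titles read *Pparg-cKO* vs control, also ran as RNA A over RNA B.

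Satellite DNA consists of short units repeated in long tandem arrays. In the mouse, the major (gamma) satellite forms the pericentromeric heterochromatin, which carries histone H3 lysine 9 methylation, binds HP1 proteins and is largely silent, although RNA from both strands is known from several tissues and stages. Gene prediction programs can place transcript models on fragments of such repeats, and a probe for one fragment can bind RNA from many copies. No satellite sequence or repeat annotation was used here, so the likeness of the members to the repeat was not computed, and a signal cannot be assigned to a single locus.

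The sequences of the probes are shown first, because they define what the signals can measure. All were 60 bases long and are given 5′ to 3′, with positions in mm9 as in the files. The first 3 probes lay on chromosome 9 and were near copies of each other, and capitals mark the longest unbroken run common to all of them, of 25 bases.
ENSMUST00000099050 probe 2 (chr9:3017151-3017210): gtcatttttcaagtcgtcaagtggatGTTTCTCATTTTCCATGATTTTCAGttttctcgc
ENSMUST00000099046 (chr9:3024224-3024283): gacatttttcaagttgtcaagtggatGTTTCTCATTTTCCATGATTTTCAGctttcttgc
ENSMUST00000177969 (chr9:3038257-3038316): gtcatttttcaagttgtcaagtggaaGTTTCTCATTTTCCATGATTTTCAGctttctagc
Aligned end to end, ENSMUST00000099046 and ENSMUST00000177969 were identical at 57 of 60 bases and differed by A2T, T26A and T58A, counted from 1 at the 5′ end with the base of the first-named probe first. ENSMUST00000099050 probe 2 was identical to either of them at 56 bases. It differed from ENSMUST00000099046 by T2A, C15T, T52C and C58T and from ENSMUST00000177969 by C15T, T26A, T52C and C58A.

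Another 3 probes overlapped in sequence across both chromosomes. In the next set, capitals mark the runs that ENSMUST00000099050 probe 1 shared with the other probes.
ENSMUST00000099684 (chr2:98502597-98502655): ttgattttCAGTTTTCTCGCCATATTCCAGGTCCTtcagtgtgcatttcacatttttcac
ENSMUST00000099050 probe 1 (chr9:3016673-3016732): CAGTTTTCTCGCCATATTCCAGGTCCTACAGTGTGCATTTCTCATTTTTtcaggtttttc
ENSMUST00000099042 (chr9:3030720-3030779): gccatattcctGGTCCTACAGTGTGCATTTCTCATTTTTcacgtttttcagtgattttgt
Probe 1 of ENSMUST00000099050 shared 27 consecutive bases with ENSMUST00000099684 on chromosome 2 and 28 with ENSMUST00000099042 on chromosome 9. Together these runs covered 49 of its 60 bases.

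The remaining probe had no long exact run in common with the others and is shown for comparison.
ENSMUST00000099683 (chr2:98507096-98507154): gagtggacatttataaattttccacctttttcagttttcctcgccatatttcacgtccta
Its longest exact run shared with any other member was 12 bases. When changes were allowed, however, the 27-base run of ENSMUST00000099684 was found in it with 3 changes. The run needed 10 changes in ENSMUST00000099050 probe 2, ENSMUST00000099046, ENSMUST00000099042 and ENSMUST00000177969. Among the 39422 probes of the array that belonged to no member, the best match of this run on either strand needed 6 changes, in 1 probe, and the median was 11. Bases of the run that would lie beyond the end of a probe count as changes, so a member with 10 changes can still hold part of it. ENSMUST00000099050 probe 2 shared 19 consecutive bases with ENSMUST00000099684. No lack of likeness is therefore read from the 10 changes. The files list the coordinates of ENSMUST00000099683 in descending order, and both chromosome 2 positions span 59 bases for a 60-base sequence.

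**Figure D1:**
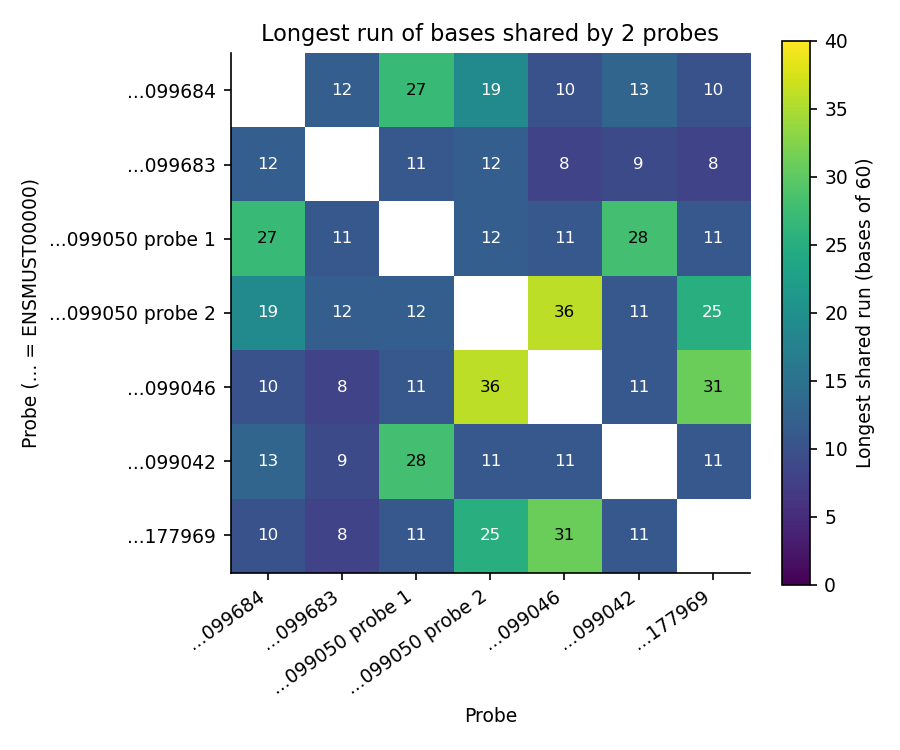
Longest run of identical bases, in bases of 60, for each pair of the 7 probes (both axes list the probes, colour and numbers give the run). Runs of 25 to 36 bases join ENSMUST00000099050 probe 2, ENSMUST00000099046 and ENSMUST00000177969, runs of 27 and 28 bases join ENSMUST00000099050 probe 1 to ENSMUST00000099684 and ENSMUST00000099042, and ENSMUST00000099683 shares at most 12.

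The annotation in the files was equally interwoven. The 7 probes were assigned 19 Ensembl transcripts in total, and 5 of these were listed for more than 1 probe. ENSMUST00000143083 was listed for 3 probes on both chromosomes, and the same held for ENSMUST00000099683, which is itself a member and was also listed for ENSMUST00000099684 and for probe 2 of ENSMUST00000099050. The members are therefore not independent measurements. None of the 6 predicted genes had an entry in the RefSeq listing used for names (GRCm38.p6).

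Outside the members, no probe of the array shared a run of 20 bases with them on either strand, whereas 6 of the 7 member probes did so with another member. At 15 bases, 2 other probes did. One belonged to *Megf11*, on the same strand, where RNA A gave 18.2 against 13.4 for RNA B on array 1 and 11.0 against 13.8 on array 2. The other belonged to *Pigm*, on the opposite strand, with log2 ratios of -0.14 and -0.01. Neither passed the 1.5-fold filter on both arrays. Of 32851 RefSeq promoters (GRCm38.p6, a short window around each gene start), 0 held a 20-base run of a member on either strand.

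The words TTTTTCA and TTTTCAG occurred in all 7 probes. They can overlap each other by 6 bases. On either strand, TTTTTCA was found in 2.06% and TTTTCAG in 2.03% of the other probes. The median log2 ratio of the other probes that held these words on the same strand was -0.01 for TTTTTCA and 0.00 for TTTTCAG.

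All 7 probes were brighter in RNA A than in RNA B on both arrays. Each was well above background in both RNAs on both arrays. The mean log2 ratio over both arrays ranged from 1.20 to 1.44, with a median of 1.31, which corresponds to 2.30-fold to 2.70-fold. The values are processed signals in arbitrary units and are compared only within a probe, since signals of different probes depend on their sequences.

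Among the near copies on chromosome 9, ENSMUST00000177969 (predicted gene 10715) gave a signal of 164 for RNA A against 65.5 for RNA B on array 1 and 175 against 59.7 on array 2. ENSMUST00000099046 (predicted gene 10718) gave 197 against 82.2 on array 1 and 196 against 68.9 on array 2. Probe 2 of ENSMUST00000099050 (predicted gene 10720) gave 612 against 255 on array 1 and 600.2 against 233 on array 2. For each probe, both values of RNA A lay above both values of RNA B. The log2 ratios were 1.44 ± 0.16 for ENSMUST00000177969, 1.38 ± 0.18 for ENSMUST00000099046 and 1.31 ± 0.07 for ENSMUST00000099050 probe 2 (mean ± SD, n = 2 arrays), and the ranges of these near copies over the arrays overlapped.

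In the set that joins both chromosomes, ENSMUST00000099684 (predicted gene 10801) gave a signal of 657 for RNA A against 290 for RNA B on array 1 and 693 against 270 on array 2. Probe 1 of ENSMUST00000099050 gave 595 against 269 on array 1 and 618 against 259 on array 2. ENSMUST00000099042 (predicted gene 10717) gave 318 against 146 on array 1 and 323 against 127 on array 2. Again, RNA A was the brighter one in each probe without overlap. The log2 ratios were 1.27 ± 0.13, 1.20 ± 0.08 and 1.24 ± 0.15, respectively (mean ± SD, n = 2 arrays).

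ENSMUST00000099683 (predicted gene 10800) on chromosome 2 gave a signal of 451 for RNA A against 177 for RNA B on array 1 and 440.1 against 160 on array 2. Its log2 ratio was 1.41 ± 0.08 (mean ± SD, n = 2). The 2 probes of chromosome 2 had a mean log2 ratio of 1.34, and the 5 probes of chromosome 9 had one of 1.31. The probes of chromosome 2 (1.27 and 1.41) lay within the range of those of chromosome 9 (1.20 to 1.44). As all members were picked for high ratios, nothing is read from the closeness of these values.

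**Figure D2:**
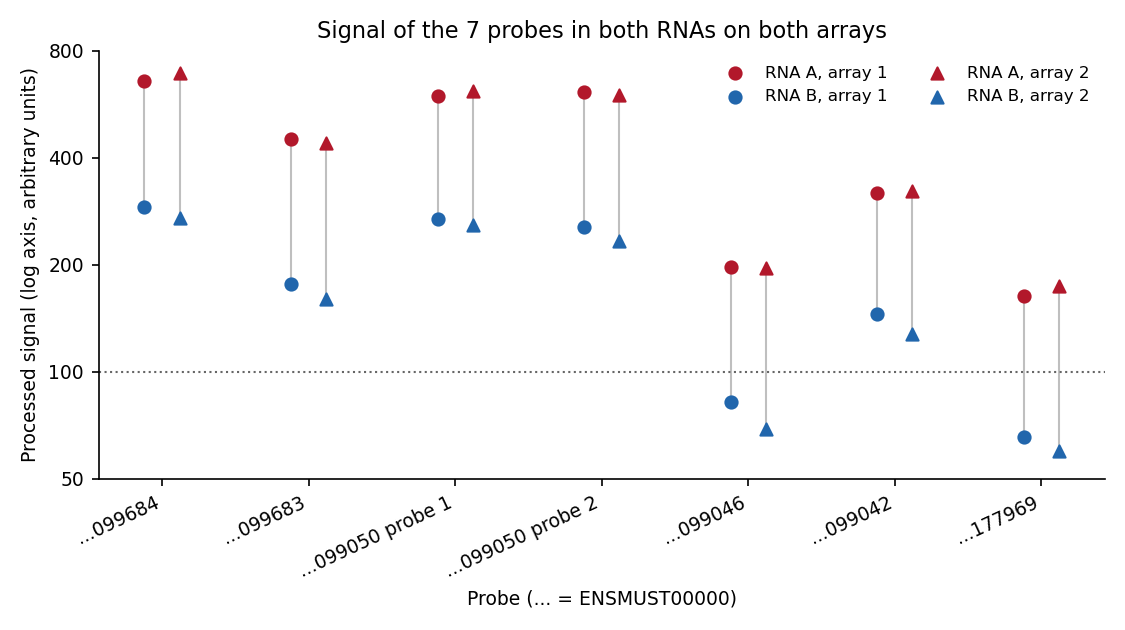
Processed signal (log axis, arbitrary units) of each of the 7 probes in RNA A (red) and RNA B (blue) on array 1 (circles) and array 2 (triangles), with grey lines joining both RNAs of an array and a dotted line at a signal of 100. RNA A lies above RNA B for every probe on both arrays, and ENSMUST00000099046 and ENSMUST00000177969 fall below 100 in RNA B.

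In the study's terms, a gene counted as changed with an at least 1.5-fold difference on both arrays and a signal of at least 100, taken here in the brighter RNA. All 7 member probes met this, against 0.130% of the array's 39381 probes with values, and all 6 transcripts, against 0.157% of genes in this direction and 0.231% in the opposite one. Since the members were picked by these ratios, nothing is read from that count. They took positions 8 to 22 among the 47 genes that passed in this direction, ordered by mean ratio. The members also stayed past a 2-fold threshold. With a signal threshold of 200, ENSMUST00000099046 and ENSMUST00000177969 no longer passed, since both were below 200 in RNA A.

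The ratio was present in each spot. Every probe was printed 4 times per array, and the spots of the members were spread from row 2 to row 1057. Of 56 spots, 2 had been flagged and were left out, 1 of ENSMUST00000099046 on array 1 and 1 of ENSMUST00000177969 on array 2. The other 54 had log2 ratios between 1.03 and 1.63 and were all past 1.5-fold. Without a signal threshold, all kept spots were past 1.5-fold in RNA A on both arrays in 0.239% of probes. The members were picked by the means of these spots, so nothing is read from this count. The SD over the spots of a member lay between 0.03 and 0.12 on array 1 and between 0.03 and 0.14 on array 2, where the median SD of probes in the same signal range was 0.05 and 0.06. These SDs describe the spread between spots and not between animals.

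**Figure D3:**
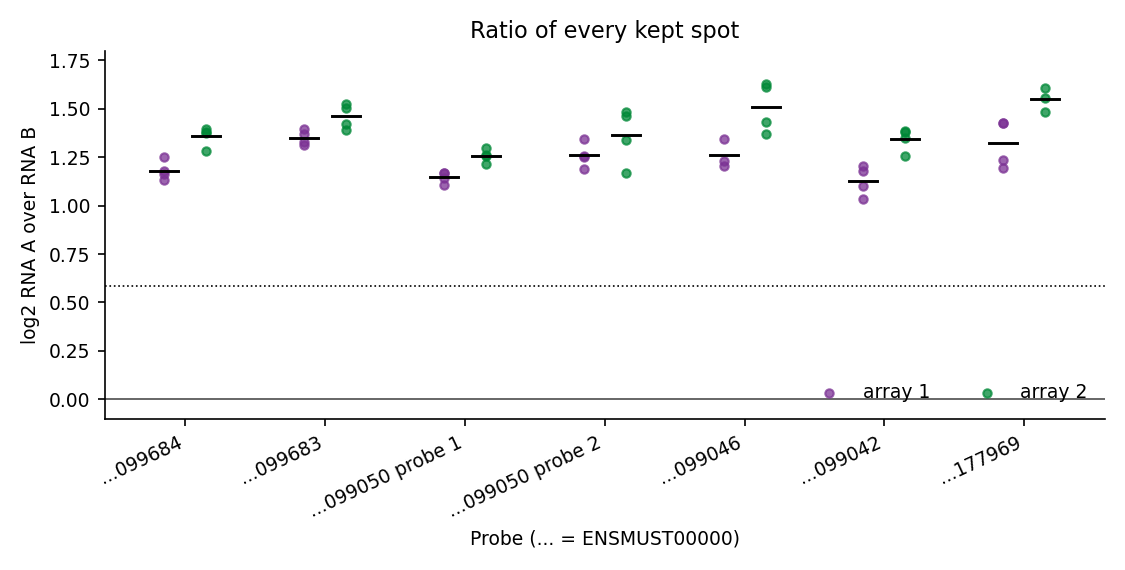
Log2 ratio of RNA A over RNA B for each kept spot of the 7 probes on array 1 (purple) and array 2 (green), with black bars for the mean of the spots and a dotted line at 1.5-fold. All 54 spots lie between 1.03 and 1.63, and the mean of array 2 is above that of array 1 for every probe.

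The ratio was larger on array 2 than on array 1 for all 7 probes. The difference in log2 ratio was 0.10 to 0.25, with a median of 0.18. Of the 41 other genes that passed the filter in RNA A, 28 also had the larger ratio on array 2, with a median difference of 0.13, and the median of the 21349 genes well above background was 0.03. In the members, the signal of RNA A changed between the arrays by -0.03 to 0.09 on the log2 scale, and that of RNA B by -0.25 to -0.06. As dye and sex were exchanged together, their part in this difference cannot be told apart.

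**Figure D4:**
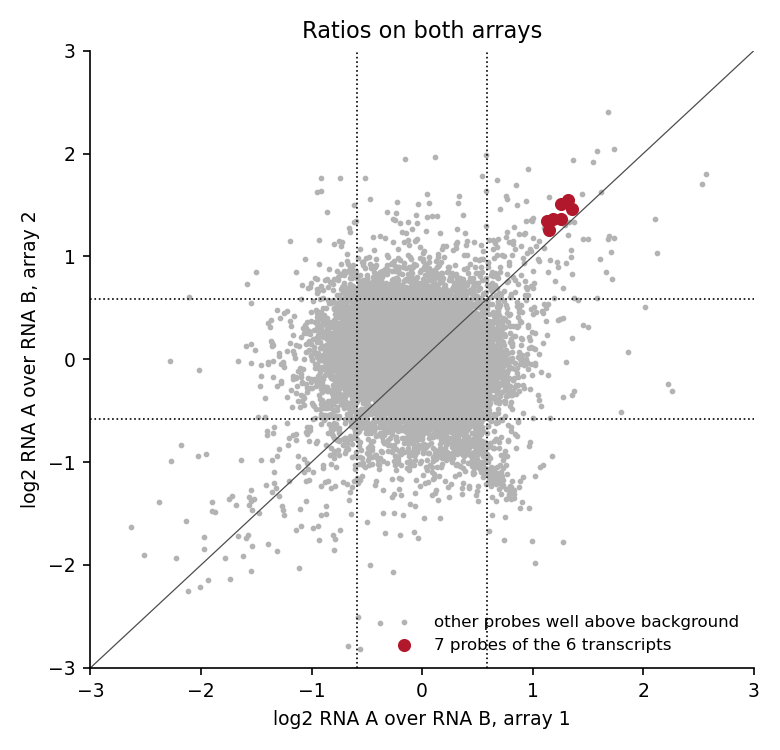
Log2 ratio of RNA A over RNA B on array 1 (x axis) and array 2 (y axis) for the 7 member probes (red) and 28291 other probes well above background (grey; 9 lie outside the axes), with dotted lines at 1.5-fold and a diagonal of equal ratios. The member probes, picked for high ratios, have log2 ratios of 1.13 to 1.35 on array 1 and 1.26 to 1.55 on array 2.

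The probes of the members differed from most other probes in base composition. They held 41.7% to 46.7% T, against a median of 28.3% in the other probes, and 15% to 21.7% A, against 28.3%. G made up 11.7% to 16.7%, against 21.7%, and C 18.3% to 25%, against 20%. There were 932 other probes with T and G shares in the range of the members. Of these, 709 were well above background, and their mean log2 ratios had a median of -0.03 and ran from -0.36 at the 5th to 0.25 at the 95th percentile. Of the 932, 1 passed the filter in RNA A, a probe named TC1605611 at chr10:91533822-91533881 with log2 ratios of 0.90 and 1.11. Another 1 passed in RNA B, the unnamed probe A_55_P2243558 at chr9:61857651-61857710 with -1.36 and -1.29. Both were named after their values had been seen. Over all probes with values, 0.130% passed in RNA A, and nothing is read from 1 of 932.

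**Figure D5:**
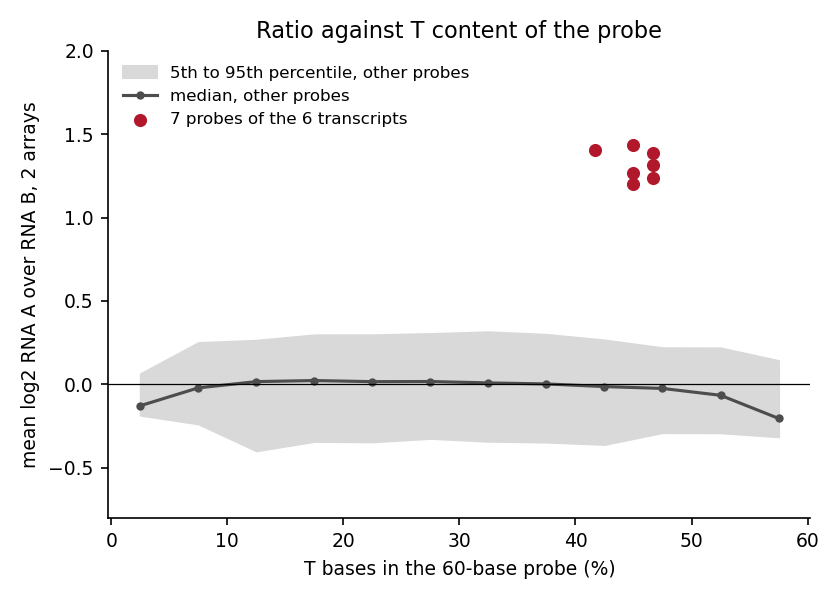
Mean log2 ratio of RNA A over RNA B on both arrays (y axis) against the share of T in the probe sequence in percent (x axis), for the 7 member probes (red points) and for other probes well above background in bins of 5 percentage points (line, median; grey, 5th to 95th percentile). The members lie between 1.20 and 1.44, above the grey band, whose upper edge is 0.27 for 40 to 45% T and 0.22 for 45 to 50% T. They were picked for high ratios, so their place above the band is no test of base composition.

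Probes near the members on the chromosomes were picked by position and the members by their high ratios, so the sizes of their ratios are not compared. Within 1 Mb of a member lay 6 other probes, of which 0 passed the filter in either direction (in RNA A, 0.130% of all probes passed). On chromosome 9 these were *Alkbh8*, a tRNA-modifying enzyme, 348 kb away, with log2 ratios of 0.09 and -0.27, *Cwf19l2*, 441 kb away, with 0.16 and -0.12, and 3 probes of *Gucy1a2*, a subunit of soluble guanylate cyclase. The *Gucy1a2* probes had mean log2 ratios of 0.04, 0.27 and -0.01, and the one at 0.27 differed between the arrays (-0.13 and 0.67). On chromosome 2, the single unnamed neighbour, A_55_P2158552, was not well above background. By limma with Benjamini-Hochberg adjustment, *Alkbh8* and *Cwf19l2* both had an adjusted p of 1.00.

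Genes known to build and maintain heterochromatin were examined as the background of these transcripts. Of 33 genes in 3 lists, all were well above background. With limma, 0 were called at an adjusted p of 0.05 in either direction, where 0.314% of all tested genes were called, and 0 had an unadjusted p below 0.05, where 807 of 21349 tested genes (3.78%) did. None passed the filter on both arrays, where 0.157% of all genes passed in RNA A and 0.231% in RNA B. Their median log2 ratio was -0.05, beside 0.01 for all genes well above background, and 3 of the 33 were positive and 8 negative on both arrays. The share of all genes with the same sign on both arrays was not counted, so nothing is read from these numbers.

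The first list held 12 enzymes and cofactors that write histone and DNA methylation, and their median log2 ratio was -0.06. The lowest were *Kmt5c*, which places trimethylation on histone H4 lysine 20, with -0.45 ± 0.20, and *Suv39h2*, which trimethylates histone H3 lysine 9, with -0.26 ± 0.71 (mean ± SD, n = 2). The highest were its paralogue *Suv39h1*, with 0.06 ± 0.30, and *Uhrf1*, which recruits DNA methyltransferase to replicated DNA, with 0.06 ± 0.64. The values of *Suv39h2* had opposite signs on the arrays, 0.24 and -0.77.

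The second list held 11 readers and structural proteins of heterochromatin, with a median of -0.06. The HP1 gene *Cbx5* had 0.20 ± 0.56 and the methyl-CpG binding gene *Mbd1* 0.19 ± 0.07, and the lowest values were -0.33 ± 0.63 for *Hmga1*, which binds AT-rich DNA, and -0.32 ± 0.31 for *Safb2* (mean ± SD, n = 2). In the third list of 10 remodellers, histone chaperones and centromere proteins, the median was 0.00. The highest values were 0.11 ± 0.76 for *Daxx*, a chaperone of histone H3.3, and 0.07 ± 0.10 for *Chaf1b*, a subunit of chromatin assembly factor 1. The lowest were -0.13 ± 0.15 for *Dicer1*, the RNase that makes small RNAs, and -0.10 ± 0.58 for the centromere protein gene *Cenpb*. Each of these genes had an adjusted p of 1.00 (limma).

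The genes whose 4 channel signals, taken relative to their own mean, lay closest to the mean profile of the members were *Sgms2*, *Krt4*, *Gabrp*, *Gm36377* and *Trim61*. Euclidean distances on the log2 scale were 0.14, 0.17, 0.17, 0.21 and 0.26. The member probes lay at 0.04 to 0.14. They make up the mean profile and were picked by these ratios, so nothing is read from their smaller distances. *Sgms2*, a sphingomyelin synthase, had log2 ratios of 1.15 and 1.58, and *Krt4*, a keratin of stratified epithelia, had 1.01 and 1.37. *Gabrp*, a subunit of the GABA receptor, had 1.32 and 1.21. *Gm36377* had 1.44 and 1.61, and *Trim61* had 1.10 and 1.08. These genes were picked for this likeness over 4 values, and no further property was compared.

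*Pparg* itself (probe at chr6:115440213-115440272) gave a signal of 11295 for RNA A against 7430 for RNA B on array 1 and 12888 against 7872 on array 2. Its log2 ratio of 0.66 ± 0.08 (mean ± SD, n = 2) had the same sign as that of the members and was not called by limma (adjusted p = 0.61). By in situ hybridization, the study reports a *Pparg* mRNA without the floxed exons in the *Pparg-cKO* ureteric epithelium. It found this mRNA increased over the control at a later stage than E16.5. The position of the array probe relative to the floxed exons was not tested.

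Marker genes of cell types were measured in the same pools, in which fewer cells of a type and less RNA per cell cannot be told apart. All 4 smooth muscle markers had negative log2 ratios on both arrays. Their log2 ratios had a median of -0.64, and their summed signals were 66004 to 72674 for RNA A against 90213 to 117892 for RNA B. limma called 0 of them, where it called 0.314% of all tested genes. All 4 had an unadjusted p below 0.05 (limma), where 3.78% of all tested genes did. Of 8 urothelial markers, 6 had negative log2 ratios on both arrays, and the whole list had a median of -0.56 and summed signals of 94772 to 105009 for RNA A against 149330 to 151029 for RNA B. An unadjusted p below 0.05 (limma) was found for 5 of the 8. The basal keratin gene *Krt5* had positive ratios (0.26 and 0.67), and the epithelial cadherin gene *Cdh1* had opposite signs (-0.59 and 0.15). The uroplakin genes *Upk1a* (-1.32 ± 0.14) and *Upk3a* (-0.70 ± 0.09) passed the filter. limma called *Upk1a* (adjusted p = 0.045), and under the 5 alternative settings the log2 ratio stayed between -1.33 and -1.32 without the call (adjusted p 0.067 to 1.00). The members thus had the opposite sign to the median of both lists, and the part of cell composition in their ratio was not tested.

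The 5 proliferation markers had a median log2 ratio of 0.12, the 5 red blood cell markers of 0.05, the 4 endothelial markers of 0.08 and the 4 macrophage markers of 0.15, with 0 of them called by limma or past the filter. Of 6 nephron markers, 3 were well above background, and all 6 together had summed signals of 228 to 238 for RNA A against 342 to 381 for RNA B. Of the 3 well above background, 2 had an unadjusted p below 0.05 (limma). *Slc34a1* was called lower in RNA A (adjusted p = 0.012, limma), but its signals there were only 6.2 and 4.2 and were not well above background on array 1, so that its log2 ratio of -2.73 was not stable and came to -1.07 with normexp and loess and -1.73 in the deposited table, both without a call. The 4 steroidogenic markers had a median of -0.17, and 0 of them were called. Among 4 late spermatid markers, *Prm1* was called higher in RNA A (5.43 ± 0.48, adjusted p = 8.3e-05, limma), whereas *Prm2* and *Tnp1* had 0.18 and 0.11, and *Tnp2* was not well above background. *Prm1* gave 517 for RNA A against 15.3 for RNA B on array 1, which held female pools, and 759 against 13.9 on array 2. It is therefore not read as a sign of spermatids, and the source of its signal was not tested.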

How the data were processed

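RNA of sex-sorted, pooled ureters was hybridised to 2 dual-colour arrays. Per the file headers, Agilent Feature Extraction 10.7.3.1 made the deposited intensities, which were background-subtracted, replaced by surrogates near background and dye-normalised within each array. The deposited log10 ratios were used only to check the dyes. The authors also deposited a table of signed fold values, whose sample titles read *Pparg-cKO* vs control without otherwise stating a direction. It ran as RNA A over RNA B (r = 0.996 and 0.997 across probes above a signal of 100) and served as an alternative.

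Control spots (17263 per array) and flagged spots were left out, and the log2 signals of a probe's spots were averaged. No spot was saturated. Between 70.4% and 80.4% of spots per channel were well above background, and only 2 arrays limit the precision. A gene was represented by its brightest probe. Names came from RefSeq (GRCm38.p6) for 31970 of 39429 probes, and positions are those of the files (mm9). limma 3.58.1 (R 4.3.3; intercept, eBayes, Benjamini-Hochberg adjustment) was fitted to both ratios of 21349 genes well above background in at least 1 RNA, and was tested on simulated data. It takes arrays of different sex as replicates. Probe sequences were compared with edlib 1.3.9.post1, on both strands outside the members.

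The members and lists were chosen with earlier results of these data known. Named are the members, *Pparg*, probes sharing sequence or lying within 1 Mb, the 5 genes of the nearest profile, and for each heterochromatin list the genes that passed or the 2 highest and 2 lowest. Markers were urothelial, smooth muscle, proliferation, nephron, red blood cell, endothelial, macrophage, steroidogenic and late spermatid genes. Alternatives were normexp (offset 50) with loess, loess on processed signals, centring on the median, the deposited table, other spot rules, thresholds and distances, and each array alone. A wider composition window, edit distances and the inexact match of the 27-base run were added after seeing the data.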

Additional observations from a re-analysis of the deposited data

How the results depend on the processing

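All 7 member probes kept a positive log2 ratio in every alternative run. Their median was 1.31, and with each array alone it was 1.26 to 1.36. With normexp and loess it moved to 1.17, below the medians of both single arrays. In that setting 5 of the 7 probes moved by more than their SD over the arrays and 2 did not. All 7 passed the filter in each alternative except the signal threshold of 200, where 5 did. No paired analysis was possible because the samples form a single group, with no second group to pair it with, and the ratio within an array already sets both of its RNAs against each other.

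Counts over all genes depended on the settings. The filter gave 47 genes for RNA A and 69 for RNA B. A signal threshold of 200 gave 28 in RNA A. Without a threshold it gave 192 for RNA A and 239 for RNA B, and at 2-fold 19 and 29. Each array alone gave 301 to 320 for RNA A and 485 to 636 for RNA B. For heterochromatin genes each array alone gave 2 to 3 genes of 33 instead of 0, where the counts over all genes were of 29846. These were *Kmt5c* (-0.59), *Cbx5* (0.59) and *Hmga1* (-0.77) on array 1 and *Suv39h2* (-0.77) and *Daxx* (0.65) on array 2 (log2 ratio on that array). The signs were mixed, and nothing is read from these counts.

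limma called 27 genes for RNA A and 40 for RNA B. This fell to 1 and 0 with normexp and loess, 9 and 24 with loess on processed signals, 1 and 0 after centring, 0 and 0 with the deposited table, and 0 and 0 with dim probes kept. The cause was not tested. The call of *Upk1a* was lost under all 5 of these, that of *Slc34a1* under all but loess on processed signals (0.026 to 1.00), and that of *Prm1* with the deposited table and with dim probes kept (0.00043 to 1.00). With 1 array left out, limma has no residual degrees of freedom and was not run. Probes that shared sequence with a member numbered 2 at 15 bases instead of 0 at 20, and probes near a member 0 within 0.2 Mb and 101 within 5 Mb instead of 6. Signals near background limit the dimmest genes, such as *Slc34a1*.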
